A study of Homo sapiens with 4 samples.

Results

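TARP is the T cell receptor gamma alternate reading frame protein, made from a transcript that arises in the gamma chain locus on chromosome 7. It was found by its RefSeq accession, NM_001003799, because its symbol cell was blank in the deposited table. The gene had 2 of 33297 probe sets, annotated as transcript variant 1 (NM_001003799.1) and variant 2 (NM_001003806.1), and it was 1 of 2548 genes that could be named. Both probe sets held identical values on all 4 arrays, so the variants could not be told apart and were counted as 1 measurement.

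In gamma delta T cells, the gamma locus is rearranged and encodes the gamma chain of the T cell receptor. In prostate epithelium and prostate cancer cells, an unrearranged copy is transcribed from within the locus. The messenger RNA is read in a different frame, and the small TARP protein has been located in mitochondria. TARP is known as an androgen-induced gene and has been studied as a target for prostate cancer immunotherapy.

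RNA was measured once in each of 4 groups of LNCaP cells, an androgen-sensitive line from a lymph node metastasis of human prostate carcinoma. All cultures were transfected with an siRNA, either siControl or siPOTEF-AS1, the latter against POTEF-AS1, a long noncoding RNA antisense to POTEF. The hormone followed 48 h later, in cells kept for 3 days in medium free of phenol red with 2.5% stripped serum, and was ethanol vehicle or 10 nM dihydrotestosterone (DHT), a natural androgen. The comparison asks which responses to androgen differ when POTEF-AS1 is depleted. The sources used here do not state how long the hormone acted.

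The 4 arrays correlated with Pearson r from 0.9885 to 0.9951 over 33297 probe sets. Each group was 1 array, so a difference between groups has no replicate check, and it is set here beside the same difference in the other arm. No probe set was annotated as POTEF-AS1, and the depletion itself was not checked. None of the 22 prostate luminal markers listed was measured under its name, so the cell type label was not checked by markers either.

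TARP was higher with DHT in both siRNA arms. Its signal on the log2 scale was 8.12 on the siControl vehicle array, 10.30 on the siControl DHT array, 7.90 on the siPOTEF-AS1 vehicle array and 11.00 on the siPOTEF-AS1 DHT array. Both DHT arrays lay above both vehicle arrays. All 4 values were above the brightness floor of 6.82, the median of all values of annotated probe sets, and the lowest of them by 1.08. In linear units the same signals were 278, 1262, 239 and 2041. These signals are those of whole cultures, in which more cells carrying a transcript and more transcript per cell cannot be told apart.

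**Figure D1:**
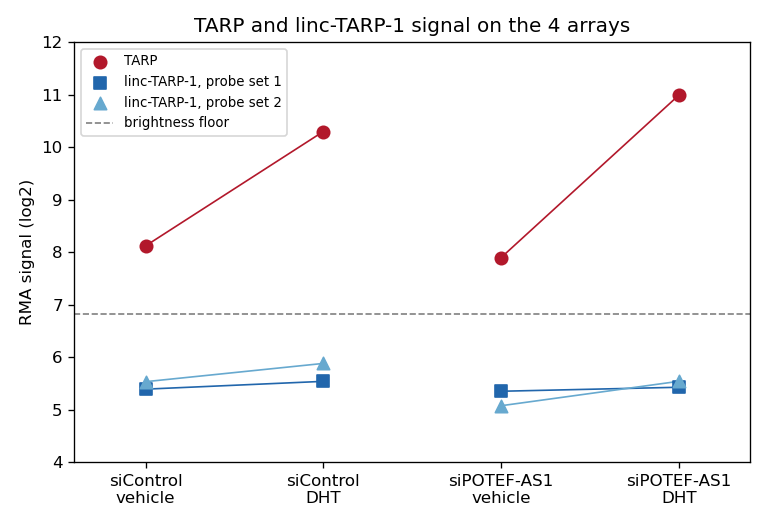
RMA signal (log2) of TARP and of both probe sets annotated as linc-TARP-1 on each of the 4 arrays, 1 point an array, with lines joining vehicle and DHT of the same siRNA and a dashed line at the brightness floor of 6.82. TARP lies at 8.12 and 7.90 with vehicle and at 10.30 and 11.00 with DHT, while all linc-TARP-1 values lie below the floor.

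With DHT, TARP was 2.18 higher on the log2 scale in siControl cells, or 4.53-fold. In siPOTEF-AS1 cells it was 3.10 higher, or 8.56-fold. The mean over both arms was 2.64 ± 0.46, where the error is the distance of either arm from the mean, and corresponds to 6.23-fold. Of 13747 expressed annotated probe sets, 1.62% were at least 2-fold higher with DHT with siControl and 1.49% with siPOTEF-AS1. Probe sets as high as TARP or higher, TARP included, numbered 32 with siControl and 12 with siPOTEF-AS1.

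The DHT effect was tested with limma, in a fit with terms for siRNA and hormone to all 13747 probe sets on the 4 arrays. TARP was higher by 2.64 with a standard error of 0.20 (95% interval 2.15 to 3.13) and a limma adjusted p of 0.000773, and it was higher in 2 of 2 arms. The model called 14.5% of the probe sets, 6.61% in the higher direction. It takes the DHT effect as the same in both arms. Its 1 residual degree of freedom per probe set is the difference between the arms, not a spread between replicates. limma moderates that with a spread shared over all probe sets (prior SD 0.10, 5.42 prior degrees of freedom). The standard error of 0.20 is therefore smaller than the 0.46 by which either arm of TARP lay from its mean. The p holds for these 4 arrays alone. By mean difference TARP stood at rank 18 among the 13747 probe sets and at rank 4 among 1344 expressed named genes.

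Among probe sets within 0.5 of TARP's mean signal of 9.33 (log2), the DHT difference had a robust SD of 0.23 with siControl and 0.25 with siPOTEF-AS1. Of these 2996 probe sets, 5 differed as much as TARP in either direction with siControl and 2 with siPOTEF-AS1, TARP included.

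The knockdown difference of TARP, siPOTEF-AS1 minus siControl, was small in vehicle and larger in DHT. In vehicle TARP was lower by 0.22 on the log2 scale, or 1.17-fold, and 1179 of the 13747 probe sets were as low or lower. In DHT it was higher by 0.69, or 1.62-fold. In that comparison 36 probe sets were as high or higher, and 0.509% of all were at least 1.5-fold higher. At the 2-fold threshold 0.0582% were higher, and TARP was not among them. The limma estimate of knockdown over the 4 arrays was 0.24 with a standard error of 0.20 (95% interval -0.25 to 0.72) and an adjusted p of 0.991. It assumes the same effect in both treatments, between which the sign differed. limma called 0 of the 13747 probe sets for knockdown, or 0.0%, and 784 had an unadjusted p under 0.05.

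The DHT response of TARP was thus 0.92 larger on the log2 scale in siPOTEF-AS1 than in siControl cells, a 1.89-fold ratio of the responses. In linear units the gain with DHT was 984 with siControl and 1803 with siPOTEF-AS1. The difference stayed under the 2-fold threshold, which 0.175% of probe sets passed in this direction. It passed 1.5-fold, as 1.83% did, and 38 probe sets were as high or higher. With 1 array per group it could not be tested. Its robust SD was 0.21 over all expressed probe sets and 0.17 over those of like signal.

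Many probe sets respond to DHT, and TARP's siRNA difference was set beside theirs. At least 2-fold higher with DHT in both arms were 168 probe sets, or 1.22%, of which 14 carried a gene name. Their DHT response had a median difference between the arms of -0.09 and ranged from -0.89 to 1.78. With its 0.92 TARP was 1 of 3 at or above that value. Both of the others were below the floor in vehicle. Of all 13747 expressed probe sets, 38 were at or above it. The 168 were chosen by the same DHT differences that are compared here, and probe sets 2-fold higher in 1 arm alone were left out. TARP's place among the 168 is therefore a description and not evidence. Over the 127 DHT-induced probe sets at or above the floor on all 4 arrays, a subset chosen after the values were seen, TARP was first and the next had 0.83.

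With knockdown in DHT, the median of the 168 was 0.00, and 5 of them were as high as TARP or higher, TARP included. The named gene above it was AGR2, whose product is a disulfide isomerase relative of the endoplasmic reticulum, at 0.90. In vehicle AGR2 differed by 0.21 and TARP by -0.22. A knockdown difference below 0 in vehicle and above 0 in DHT, as in TARP, occurred in 22 of the 168, and in 20.7% of all expressed probe sets. No test of TARP against the other DHT-induced probe sets was possible, and the signals compared also entered the choice of the 168.

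**Figure D2:**
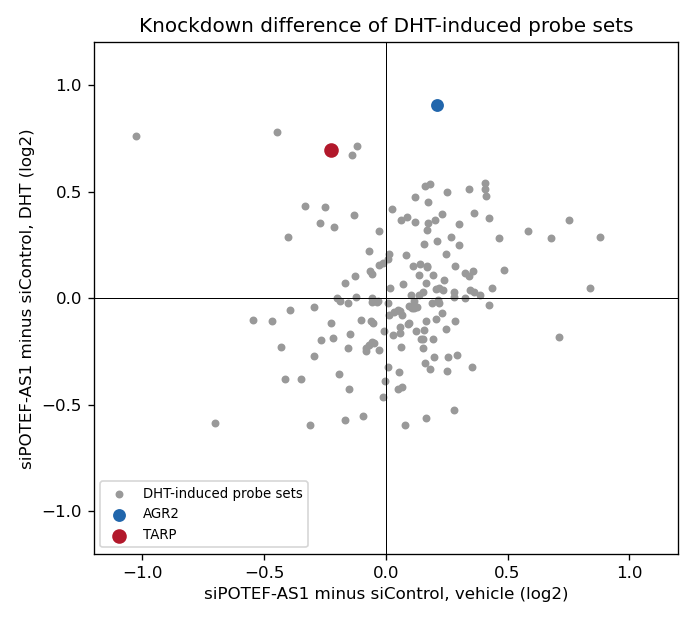
Difference between siPOTEF-AS1 and siControl (log2) in vehicle (x axis) and in DHT (y axis) for the 168 probe sets at least 2-fold higher with DHT in both arms, 1 point a probe set, with TARP in red and AGR2 in blue. TARP lies at -0.22 and 0.69, near the upper edge of the cloud, whose median is 0.10 in vehicle and 0.00 in DHT.

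The genes whose pattern over the 4 arrays was most like TARP were named by the distance between profiles, each centred on its own mean. The 5 nearest of 1344 expressed named genes were AGR2 at 0.44, the centromere protein gene CENPN at 0.59, the growth factor receptor gene IGF1R at 0.59, the actin monooxygenase gene MICAL1 at 0.77 and the sialyltransferase gene ST6GALNAC1 at 0.93. The next, SGK1, lay at 0.95, and the median over named genes was 2.70. All 5 were higher with DHT in both arms, a direction that their choice by likeness to TARP fixes.

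AGR2 had log2 signals of 6.05, 8.05, 6.25 and 8.96 in the order siControl vehicle, siControl DHT, siPOTEF-AS1 vehicle and siPOTEF-AS1 DHT. Its vehicle values were below the floor for named genes of 6.50, so no fold is given. Its DHT difference was 2.00 with siControl and 2.70 with siPOTEF-AS1, larger in the latter as for TARP.

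ST6GALNAC1 had 6.06, 9.27, 5.81 and 9.70 on the same arrays, again with vehicle values below that floor. Its DHT difference was 3.21 with siControl and 3.89 with siPOTEF-AS1. CENPN was higher with DHT by 2.51 and 2.86, whereas IGF1R, at 2.55 and 2.40, had the larger difference in siControl cells. MICAL1 was almost alike in both arms, at 1.98 and 2.03. The difference between arms was 0.36 for CENPN, -0.15 for IGF1R and 0.04 for MICAL1, beside 0.92 for TARP. For AGR2 and ST6GALNAC1 it was 0.70 and 0.68, taken against vehicle signals not shown to be above background.

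Pearson correlation was less selective over 4 arrays: 100 named genes reached an r of 0.95 with TARP. Among all annotated probe sets, the nearest was one annotated only as uc001hda.1, at a distance of 0.41, with DHT differences of 2.54 and 2.66. After it and AGR2 came uc003oky.2 at 0.45, uc003itu.2 at 0.52, uc001tjm.2 at 0.53 and uc002xyq.3 at 0.57, all nearer than CENPN. The difference between arms was 0.12 for uc001hda.1 and, in the order given, 0.24, 0.81, 0.04 and -0.13. The vehicle signals of uc003itu.2 and uc001tjm.2 were below the floor.

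**Figure D3:**
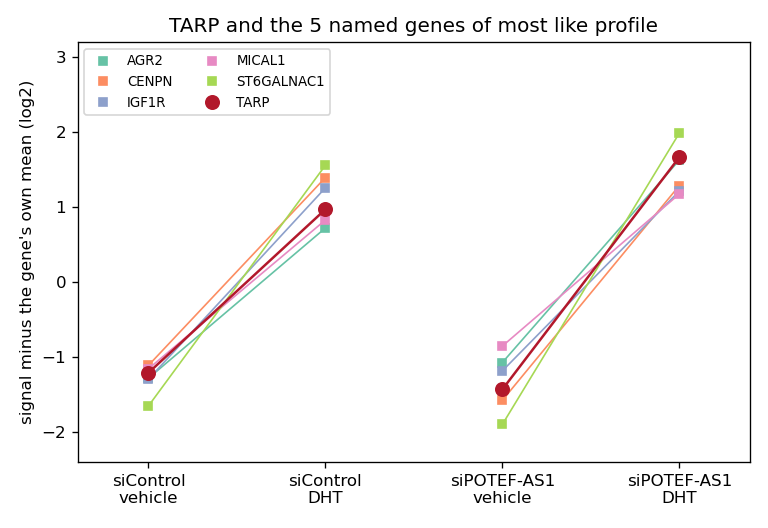
Signal minus the gene's own mean over the 4 arrays (log2) for TARP and the 5 named genes nearest to it, 1 point an array, with lines joining vehicle and DHT of the same siRNA. All 6 genes are below their mean with vehicle and above it with DHT, and TARP, AGR2, ST6GALNAC1 and MICAL1 are higher on the siPOTEF-AS1 DHT array than on the siControl DHT array, whereas CENPN and IGF1R are lower.

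Genes known to be induced by androgen give the setting of the TARP response. Of 54 symbols on a list of such genes, 9 were measured by name, TARP and 8 others. The list was drawn up with earlier results of these data known, so its direction is not independent evidence. At least 2-fold higher with DHT were 6 of the 8 in each arm, beside 0.863% (siControl) and 0.667% (siPOTEF-AS1) of all 2548 named genes. Of the 7 listed genes tested with limma, SGK1 reached the floor on its DHT arrays alone, so it could be called only as higher. The fit called 6.61% of all 13747 probe sets higher. In it 6 of the 7 genes were higher at limma adjusted p between 0.000108 and 0.00111, and none was lower.

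These were the kinase gene SGK1, with mean 3.13 on the log2 scale from vehicle signals below the floor, CENPN with 2.69, IGF1R with 2.48, MICAL1 with 2.01, LRIG1, which restrains receptor tyrosine kinases, with 1.72, and the zinc finger transcription factor gene ZBTB16 with 1.30. The kallikrein gene KLK15 differed by 0.31 and 0.04, with a limma adjusted p of 0.337, and ADAM7 was below the floor on all arrays. The median difference of the 8 was 1.90 with siControl and 1.83 with siPOTEF-AS1, beside -0.02 and 0.04 over all named genes. TARP was above the list median in both arms.

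The difference between the DHT responses of the arms had a median of -0.18 over the 8 genes and was 0.92 for TARP. The largest positive values were 0.36 for CENPN and 0.30 for ZBTB16, and SGK1, with vehicle signals of 5.01 and 5.07 below the floor, had -0.48.

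**Figure D4:**
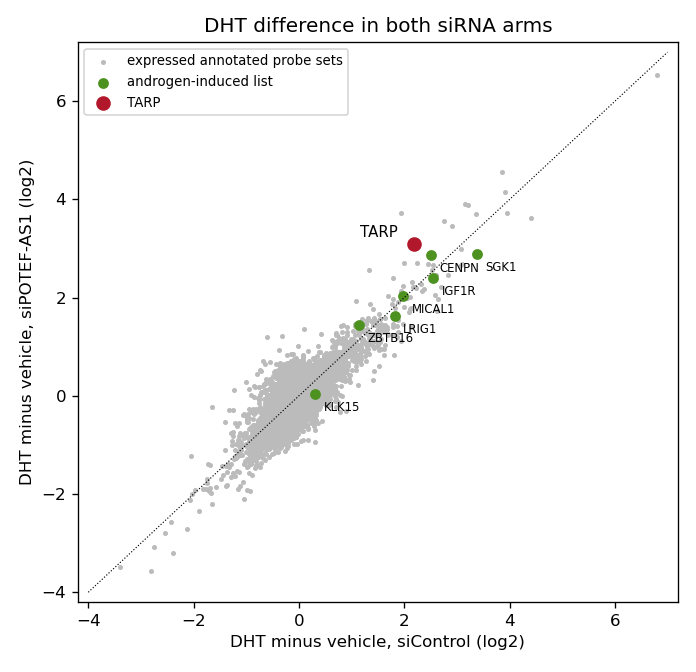
DHT minus vehicle (log2) with siControl (x axis) and with siPOTEF-AS1 (y axis) for 13747 expressed annotated probe sets in grey, with 7 expressed androgen-induced genes in green and TARP in red; the dotted line marks equal differences. TARP, at 2.18 and 3.10, lies above the line, while KLK15 lies near the origin.

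Other transcripts of the T cell receptor gamma locus and markers of T cells were examined beside TARP. In the RefSeq table (GRCh38.p14, used here for names and neighbours only) the TARP interval holds or, for TRGJP, nearly holds 3 gamma gene segments, TRGC1, TRGJ1 and TRGJP. None of the gamma segments was measured under its own name. TRGC1 and TRGC2 are near-identical constant regions, and the deposited annotation does not say which of them the TARP probes read, so the source of the signal within the locus is uncertain.

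The array held 2 further probe sets annotated as linc-TARP-1, a predicted noncoding transcript on the minus strand of chromosome 7 (38391052 to 38394123, in a row that names no genome build). One had log2 signals of 5.39, 5.54, 5.35 and 5.43 in the order siControl vehicle, siControl DHT, siPOTEF-AS1 vehicle and siPOTEF-AS1 DHT, and the other 5.53, 5.88, 5.07 and 5.54. All 8 values were below the floor of 6.82. Their DHT differences were 0.15 and 0.08 for the first and 0.35 and 0.47 for the second, with no 2-fold difference in either arm.

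Markers of T cells and natural killer cells were low. Of 32 listed, 4 were measured by name (GZMB, KLRB1, KLRD1 and TRAT1), and none reached the floor on any array. Their signals ran from 3.30 for KLRD1 to 6.41 for GZMB. The DHT difference of the 4 had medians of 0.00 in both arms and none reached 2-fold. GZMB, a cytotoxic granule protease gene, was the one with the largest difference, 0.49 in siPOTEF-AS1 cells. The markers CD3D, CD3E and CD247, parts of the T cell receptor complex, are among those not analysed here by name. From the other T cell receptor loci, the orphan beta segments TRBV21OR9-2 and TRBV23OR9-2 were measured, also below the floor on all arrays, with DHT differences of -0.12 and 0.11, and of -0.34 and 0.29.

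Of 44 further RefSeq genes within 1000000 bases of TARP, ELMO1, an activator of Rac signalling, was the one measured by name. Its log2 signals of 5.28, 5.63, 5.59 and 5.64, in the array order used above, were all below the floor, with DHT differences of 0.34 and 0.05. None of the linc-TARP-1, ELMO1 and T cell marker probe sets measured was 2-fold different with DHT in either arm, and all of them were dim.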

How the data were processed

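RNA from 4 LNCaP cultures, 1 array per group, was analysed. The authors deposited RMA signals on the log2 scale, 1 per probe set. The submitters' processing notes name RMA and Affymetrix Expression Console, without versions. RMA normalises arrays to a common distribution, which removes changes in total RNA, and compresses differences of dim probe sets. A second deposited table held the same values. No detection calls were used. Precision is limited by the number of arrays.

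Symbols came from the table or, where blank, through RefSeq accessions (156 probe sets). Each gene took its brightest probe set. Annotated probe sets with identical values were counted once (26187), and 13747 reached the floor on at least 1 array. limma 3.58.1 in R 4.3.3 fitted siRNA and hormone, with Benjamini-Hochberg adjustment over all 13747 and a threshold of 0.05. It was also run on simulated data, with the same spread for all probe sets and no difference between the siRNA arms. That setting does not cover a DHT response that differs between the arms, as that of TARP did. Members, lists and rules were chosen with earlier results of these data known. The named genes were TARP, measured list members, the 5 nearest profiles and neighbours. Alternatives changed filter, scaling, model and likeness measure. The labels give no batch.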

Additional observations from a re-analysis of the deposited data

Results flagged for a closer look

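The knockdown difference of TARP had opposite signs in the 2 hormone treatments, -0.22 on the log2 scale in vehicle and 0.69 in DHT, a gap of 0.92. Each treatment held 1 array per siRNA, so this difference was not tested. In vehicle 1179 of the 13747 expressed probe sets were as low as TARP or lower. The same pair of signs occurred in 20.7% of the 13747, so the change of sign alone is common.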

How the results depend on the processing

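Under 4 alternatives (arrays centred on their medians, quantile normalization again, intensity trend removed, the second deposited table) each TARP difference kept its direction. The second table holds the same values, so its outcome was fixed. The other alternatives rescale the same 4 single arrays and do not replace replicates. The DHT difference ran from 2.18 to 2.21 in siControl cells and from 3.04 to 3.16 in siPOTEF-AS1 cells, the knockdown difference from -0.26 to -0.16 in vehicle and from 0.67 to 0.71 in DHT, and the difference of the responses from 0.83 to 0.98. Under 7 alternatives of the limma fit the adjusted p of TARP was at most 0.00817 for DHT and at least 0.781 for knockdown. In one of them, the fit of median-centred arrays, the variance prior had infinite degrees of freedom, so that its p-values and counts are not reliable. The number of probe sets called for DHT, 1994 of 13747 tested, became 846 of 26187 without a filter on low values. It was 2231 of 7116 with a filter at the 75th percentile, 112 of 1344 with named genes only and 3007 of 13747 with an intensity trend. The share called thus depended on the filter. For knockdown the 0 calls became 48 of 7116 with a filter at the 75th percentile, 66 of 13747 with an intensity trend and 87 of 13741 with median-centred arrays. The cause of these changes in the counts was not tested. The androgen-induced median in siPOTEF-AS1 cells, 1.83, became 2.03 over expressed members. Ranking by Pearson correlation in place of distance shared 0 of the 5 genes most like TARP. The limma fit pairs vehicle and DHT within a siRNA arm through its siRNA term, and the fit of hormone alone drops that term. No block by replicate number could be added, since each group holds 1 array.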

Other observations

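Other DHT-induced probe sets had a like difference between the siRNA arms. The probe set annotated only as uc003exb.1 had log2 signals of 8.77 and 8.65 on the siControl and siPOTEF-AS1 vehicle arrays and of 9.86 and 10.57 on the corresponding DHT arrays. Its DHT response differed by 0.83 between the arms. Among the 127 DHT-induced probe sets at or above the floor on all 4 arrays, this was next to the 0.92 of TARP. A second, uc001qtr.3, had log2 signals of 6.20 and 5.18 with vehicle and 8.15 and 8.91 with DHT. Its vehicle signals were below the floor of 6.82, so that its difference between the arms, 1.78, rests on values not shown to be above background. Both were chosen after their values were seen.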
